A study of Saccharomyces cerevisiae with 27 samples.

Results

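Genes that gained antisense RNA in 3 mutants of the INO80 chromatin remodelling complex of Saccharomyces cerevisiae, budding yeast, are described here: 121 of the 1553 genes for which the authors deposited strand-separated RNA values. The genes were chosen by those measured values. In each of the authors' deposited antisense tables for the arp5, ies6 and ino80 mutants, the mean log2 ratio of mutant over wild type across the 15 equal parts of the gene body was at least 1, which is a 2-fold gain. The threshold was met by 20.7% of the 1553 genes in arp5, 14.2% in ies6, 38.2% in ino80 and 7.79% in all 3 together. Because the antisense values of these 3 tables chose the genes, they are given as a description, with no test.

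The study asked how INO80 and the silencing protein Sir3 act on silent and open chromatin, and sequenced RNA from arp5Δ, ies6Δ, ies2Δ and sir3Δ strains, a double mutant lacking both sir3 and arp5, and their wild type BY4741, and from an ino80Δ strain and its wild type CY337; the mutants are written without the sign below. Cells for RNA were grown in rich YPD medium to exponential phase. H3K4me3 and H3K79me3, methylated forms of histone H3, were mapped by immunoprecipitation and sequencing (ChIP-seq) in arp5 and in BY4741, and the Arp5 protein in strain CY1838 (labelled wild type), whose cells were arrested with nocodazole and released into alpha-factor. Of the 27 libraries 19 held RNA. For RNA there were 3 libraries each of arp5, ies6, sir3 and BY4741, 2 each of ies2, ino80 and CY337, and 1 of the double mutant, and for ChIP there was 1 of each kind. The deposited RNA values come as 1 column or 1 ratio per genotype, so no value below has a replicate, an SD or a p-value, and a difference between 2 genotypes cannot be weighed against the spread between cultures. Strand-separated tables were used for arp5, ies6, ino80 and sir3. Which libraries gave the strand-separated values is not stated, so they may rest on fewer libraries than counted above. Read depth is unknown, and the antisense tables hold ratios, not levels, so a large ratio may stand on few reads.

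INO80 is a complex that uses ATP to move and space nucleosomes, often at the nucleosomes that flank promoters. Ino80 is its motor subunit, and Arp5 and Ies6 form a module within it that couples the motor to nucleosome movement. Antisense transcription runs across a gene on the strand opposite to its coding RNA, frequently from the open chromatin past the gene's 3′ end. H3K4me3 is laid down behind initiating RNA polymerase and normally peaks at the 5′ ends of active genes, and H3K79me3 covers transcribed gene bodies.

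The strand tables passed 2 checks of their labels, at IES6 and at SIR3, which bear on the ies6 and sir3 tables. The arp5 and ino80 strand tables had no such check at their own deleted genes. Over IES6, which lies in 4 windows next to GTA1, the deposited values for the IES6 strand lay between -8.30 and -6.53 in ies6, and between -0.64 and 0.15 in the other 3 tables. Over SIR3, in 5 windows next to RPS1A, they lay between -5.61 and -4.87 in sir3 and between 0.25 and 1.67 in the other 3. Where windows of a plus-strand and a minus-strand gene cover the same 100 bp, the antisense values of one and the sense values of the other had Pearson correlations between 0.85 and 0.90 over 226 to 312 such bins. In FPKM, fragments scaled by gene length and sequencing depth, the deleted genes ARP5, IES6 and INO80 stood at 0, 0.225 and 0.523 in arp5, ies6 and ino80, against 35.02 and 185 in BY4741 and 22.1 in CY337. The ino80 strand tables are named as ratios over BY4741. Among 48 genes of at least 10 FPKM whose level differs by at least 1.5 (log2) between CY337 and BY4741, the ino80 sense value was nearer to ino80 over CY337 in 29, with a median distance of 0.76, against 1.32 from ino80 over BY4741. Which wild type stands under the ino80 ratios is therefore uncertain.

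The gene tables themselves leave out crowded places. Of the 1553 genes, 1488 had no annotated gene of the other strand within 1000 bp, while 5 of the 5139 genes not in the strand tables had none. Of the 121 genes, 117 had none, and the nearest gene of the other strand lay a median of 2040 bp away. Most of the 121 genes thus stand in rows of genes that point the same way.

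Antisense RNA was at least 2-fold above wild type on average over each gene body, by the rule. Over the 121 genes the antisense value of the gene body had a median of 1.90 in arp5, with quartiles of 1.55 and 2.33, a median of 1.61 in ies6, with quartiles of 1.30 and 1.94, and a median of 1.97 in ino80, with quartiles of 1.44 and 2.52. The other 1432 genes had medians of 0.32, 0.15 and 0.62, and the medians over all 1553 genes were 0.38 in arp5, 0.21 in ies6 and 0.70 in ino80, so each table as a whole lay above 0. In these bulk samples, more RNA per cell and more cells with the RNA cannot be told apart. Within the body, a member had a median of 10 of 15 body windows at or above 1 in arp5, 10 in ies6 and 11 in ino80, with a lowest count of 5 in each table. Windows listed at exactly 0, which can stand for no estimate, made up 10.1% of the members' body windows in arp5, 11.8% in ies6 and 5.90% in ino80, against 36.4%, 37.2% and 31.7% in the other genes.

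**Figure D1:**
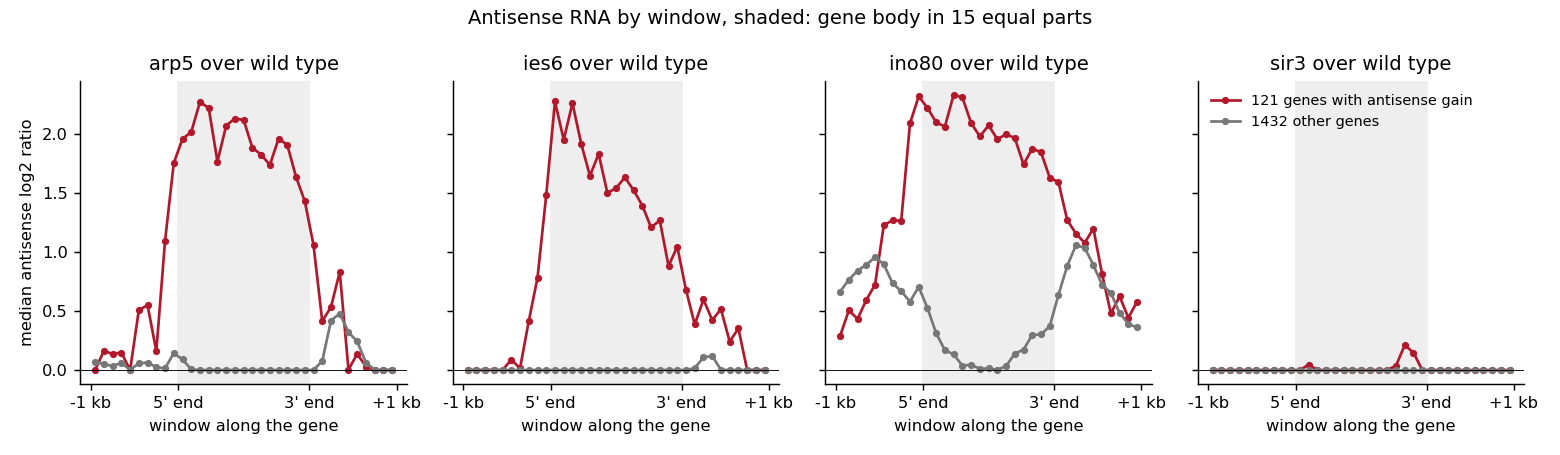
Median antisense log2 ratio over wild type (y axis) in 35 windows along the gene (x axis), for the 121 genes with antisense gain (red) and 1432 other genes (grey); windows are 100 bp outside the gene and fifteenths of it inside. The red line is high over the whole body in arp5, ies6 and ino80, where the rule chose it to be, reaches beyond the 5′ end, fades past the 3′ end and stays near 0 in sir3.

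The gain ran through the start of the gene into the promoter. Antisense transcription moves from the 3′ to the 5′ end. The members' median was highest in the third fifteenth of the body in arp5, with 2.27, the first in ies6, with 2.28, and the fourth in ino80, with 2.33. In the last fifteenth, next to the 3′ end, it was 1.43, 1.05 and 1.63. The profile was uneven: in arp5 the median was 1.96 in the first fifteenth, 1.77 in the fifth and 2.13 in the seventh. The rule used these body windows. Gene by gene the slope was mixed: the mean of the first 5 body windows was above that of the last 5 in 70 of 121 genes in arp5, 71 in ies6 and 64 in ino80. The same count was not taken in the other genes. Their medians over the first 5 and the last 5 were 0.32 and 0.02 in arp5, 0.13 and 0.00 in ies6, and 0.59 and 0.58 in ino80. The members had 2.05 and 1.74 in arp5, 1.98 and 1.38 in ies6, and 2.15 and 1.79 in ino80. In the 100 bp before the start, which the rule did not use, the members' medians were 1.75 in arp5, 1.48 in ies6 and 2.32 in ino80, against 0.14, 0.00 and 0.70 in the other genes. Between 100 and 200 bp before the start they were 1.09, 0.78 and 2.09. In the 100 bp past the 3′ end the members' medians were 1.06, 0.68 and 1.59, against 0.00, 0.00 and 0.64 in the other genes. From 300 to 400 bp past the 3′ end the other genes came closer to the members, with 0.48, 0.12 and 1.04 against 0.83, 0.42 and 1.08. That stretch often holds the promoter and start of the next gene.

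RAP1, BSP1, PHO84, KTR2 and GPA1 had the highest antisense values, ordered by the smallest of their 3 values. RAP1 (YNL216W; chromosome XIV, 241689 to 244172, plus strand, sacCer3) encodes an essential DNA-binding protein of ribosomal protein promoters and telomeres that recruits Sir proteins. Its body values were 3.94 in arp5, 3.47 in ies6, 3.96 in ino80 and 0.52 in sir3. All 15 of its body windows were at or above 1 in arp5 and in ino80, and 14 in ies6, and the 100 bp before its start stood at 4.45, 4.18 and 3.46. Its sense values were -0.84 in arp5, -0.54 in ies6, 0.32 in ino80 and -0.39 in sir3, with FPKM of 23.1 in arp5, 22.6 in ies6 and 27.4 in sir3, against 27.3 in BY4741, and 30.7 in ino80, against 35.8 in CY337. BSP1 (YPR171W; chromosome XVI, 883828 to 885558, plus strand), an adaptor of cortical actin patches, had 3.07 in arp5, 3.38 in ies6, 3.66 in ino80 and 0.05 in sir3. PHO84 (YML123C; chromosome XIII, 24037 to 25800, minus strand), the high-affinity phosphate transporter, had 2.96, 2.85 and 4.58 in arp5, ies6 and ino80 and -0.51 in sir3. PHO84 is a textbook case of a yeast gene with antisense RNA. Within it the tables differed by place: the first 5 body windows averaged 1.14 in arp5 and 0.18 in ies6 but 5.91 in ino80, and the last 5 averaged 4.27, 4.60 and 3.44.

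KTR2 (YKR061W), a mannosyltransferase of the secretory pathway, had antisense values of 3.38, 2.74 and 2.88 in arp5, ies6 and ino80, and 1.71 in sir3. GPA1 (YHR005C; chromosome VIII, 113499 to 114917, minus strand), the alpha subunit of the pheromone-coupled G protein, had 2.67, 2.66 and 2.69, and 0.47 in sir3. The next 5 were REC8, a meiotic cohesin subunit, with a smallest value of 2.59, SAN1, a nuclear ubiquitin ligase for misfolded proteins, with 2.55, NAT4, which acetylates the N-termini of histones, with 2.54, FRE3, a reductase for iron bound to siderophores, with 2.40, and PRO2, of proline synthesis, with 2.29. At the other edge of the rule, SRM1, SPC24 and YLR001C had smallest values of 1.02, 1.01 and 1.00. The genes just outside were ICS2, GPB1 and YGR107W, with 0.99 each. These genes differed from the last members by hundredths.

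**Figure D2:**
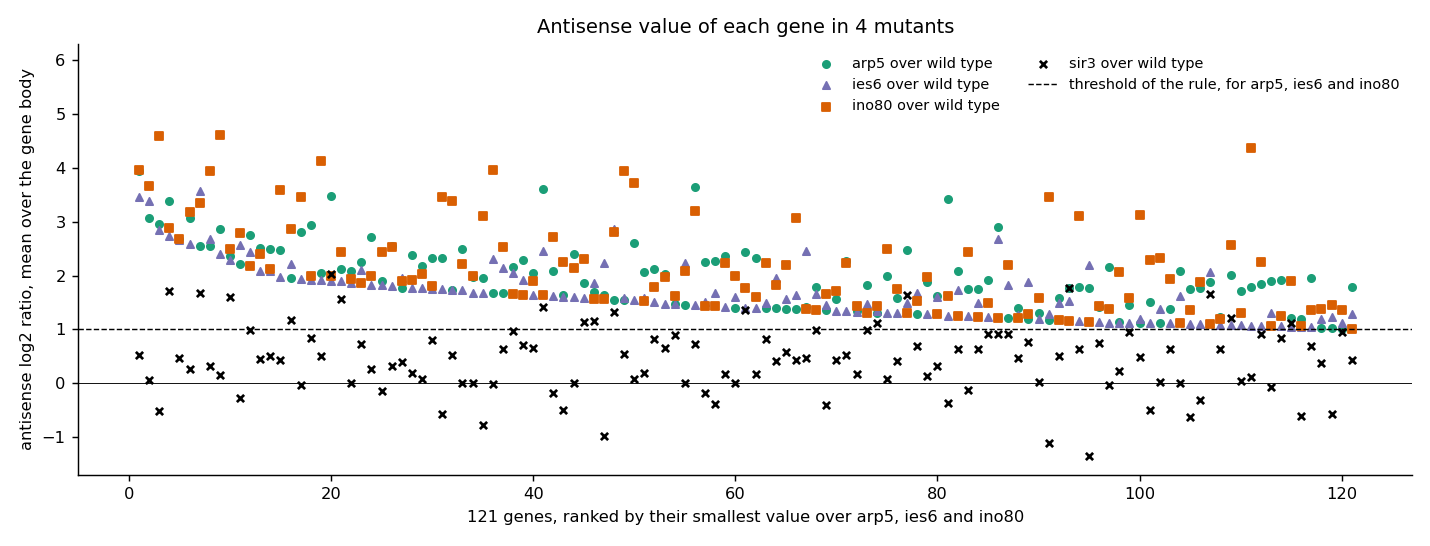
Antisense log2 ratio over wild type, mean over the gene body (y axis), for each of the 121 genes ranked by the smallest of the arp5, ies6 and ino80 values (x axis), with 1 point per gene and mutant. The arp5, ies6 and ino80 points lie above the dashed line at 1 by the rule, and the sir3 points spread from -1.35 to 2.02.

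**Figure D3:**
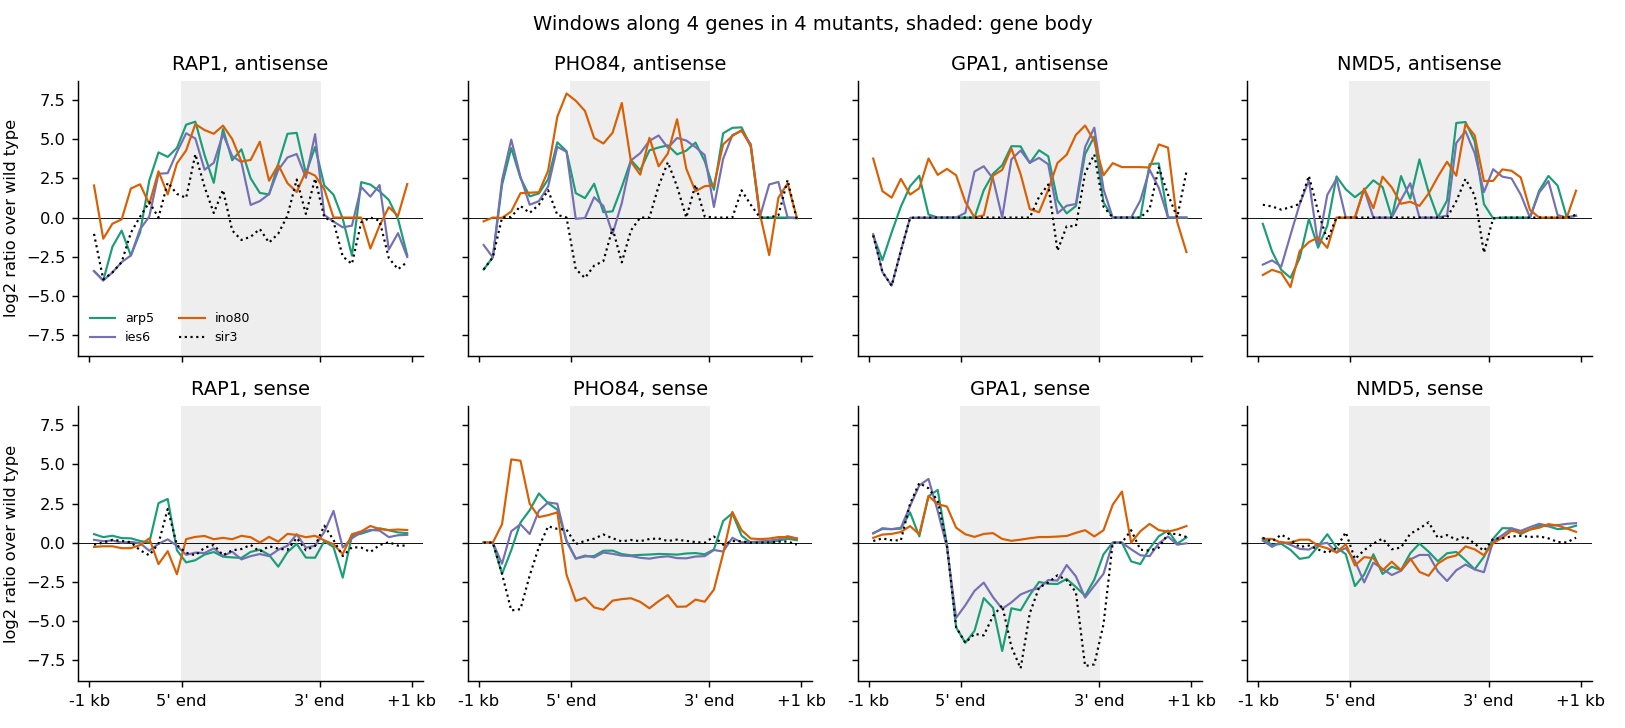
Antisense (top) and sense (bottom) log2 ratios over wild type (y axis) in the 35 windows along RAP1, PHO84, GPA1 and NMD5 (x axis), 1 line per mutant, with sir3 dotted. Antisense values are high in arp5, ies6 and ino80 along most of RAP1, while the sense lines lie below 0 in all 15 body windows over PHO84 and NMD5 in arp5, ies6 and ino80, over GPA1 in arp5, ies6 and sir3, and over RAP1 in arp5, and in all but 1 over RAP1 in ies6 and sir3. The lowest are those of GPA1 in sir3 and arp5.

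Antisense values of the 121 genes were lower in sir3, where the rule did not require a high value. Their median was 0.45, with quartiles of 0.01 and 0.82, and 17 of 121 reached 1, where 5.73% of all 1553 genes did. The other 1432 genes had a median of 0. Values above 0 were found in 92 of 121 members, 76%, against 42.8% of the other genes. Windows at exactly 0 made up 32.6% of the body windows in sir3 at members and 44.0% at the other genes. The highest were GTR2, a GTPase of the EGO complex that signals to TORC1, with 2.02, FIN1, a spindle filament protein, with 1.77, KTR2 with 1.71, SAN1 with 1.68 and USV1, a transcription factor of growth on non-fermentable carbon, with 1.66. The lowest were UIP3, a nuclear envelope protein of the DUP family, with -1.35, GAL80, the repressor of the galactose genes, with -1.11, MRX16, a mitochondrial protein, with -0.98, MRI1, of methionine salvage, with -0.77, and PDC6, a minor pyruvate decarboxylase, with -0.62. The sir3, arp5 and ies6 ratios share BY4741 as their wild type, so the sir3 values are not independent of the choice of genes. With the median over the 15 windows in place of the mean, the median over the members in sir3 was 0.

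Sense RNA of the 121 genes, which the rule did not use, showed no common direction. The members' median sense value was 0.25 in arp5, 0.09 in ies6, 0.37 in ino80 and -0.02 in sir3, and the other genes had 0.22, 0.13, 0.55 and 0.00. Relative to the median of each whole sense table, the members stood at 0.029 in arp5, -0.037 in ies6 and -0.16 in ino80, so the sign in ies6 and ino80 depends on the scaling. In arp5, 16 of 121 had a sense value of at least 1 and 4 had -1 or less, where 10.6% and 3.03% of all genes did. In ies6 the counts were 13 and 7, against 8.44% and 4.38% of all genes. In ino80 they were 28 and 7, against 24% and 2.19%. In sir3 they were 2 and 5, against 2% and 4.51%. The shares of higher genes were close to those of all genes, and the share of lower genes in ino80, 5.79%, was above it. Sense values below 0 in all 3 mutants were found in 16 of 121 members, 13.2%, against 7.4% of the other genes. By mutant, 27.3% of members were below 0 in arp5, 42.1% in ies6 and 24.8% in ino80. The other genes had 29.1%, 37% and 16.1%. Across the 121 genes the antisense and the sense value had Pearson correlations of -0.05 in arp5, -0.14 in ies6 and -0.19 in ino80. Across the other genes these correlations were -0.02, -0.12 and 0.12. In each case the points share their libraries.

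**Figure D4:**
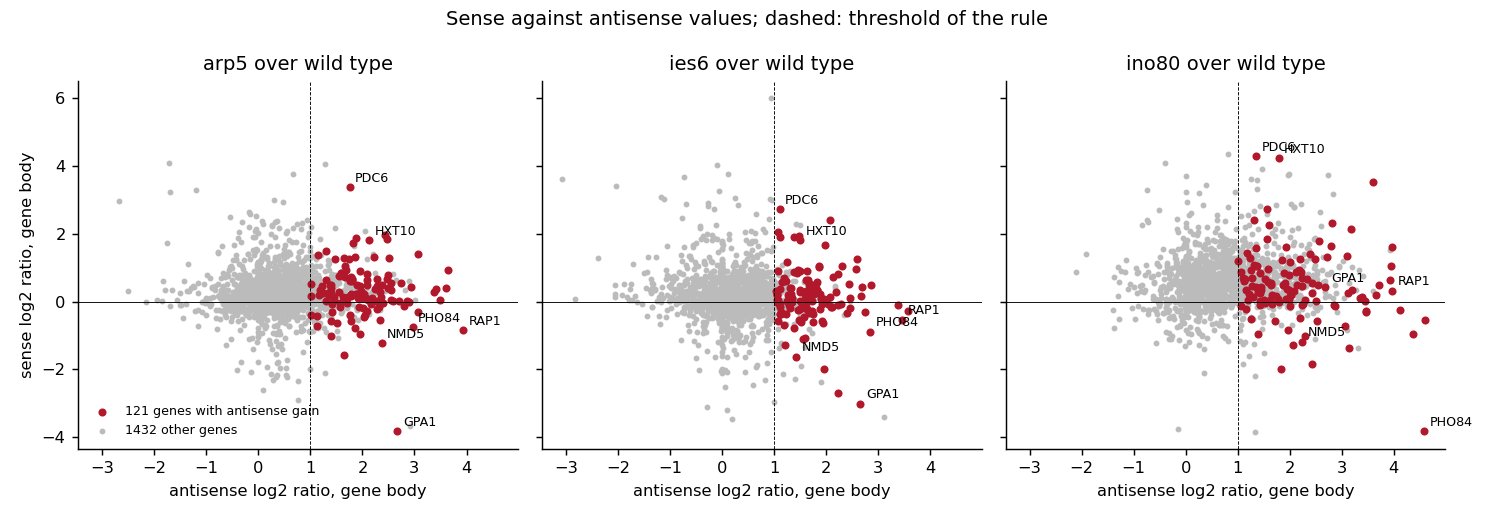
Sense (y axis) against antisense (x axis) log2 ratio over wild type of the gene body in arp5, ies6 and ino80, 1 point per gene, for the 121 genes (red) and 1432 other genes (grey). The red points lie right of the dashed line by the rule and spread to both sides of 0 on the y axis, from GPA1 and PHO84 at the bottom to PDC6 and HXT10 at the top.

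Of the 121 genes, 2 had a sense value of -1 or less in all 3 mutants, where 0.644% of all genes did. NMD5 (YJR132W; chromosome X, 669522 to 672668, plus strand), a nuclear import receptor, had sense values of -1.23 in arp5, -1.62 in ies6, -1.18 in ino80 and 0.10 in sir3. Its FPKM was 9.13 in arp5, 5.81 in ies6, 13.3 in ies2, 24.9 in sir3 and 6.45 in the double mutant, against 21.9 in BY4741, and 9.80 in ino80, against 34.4 in CY337. Its FPKM was thus lower in arp5, ies6, ies2, ino80 and the double mutant, and not in sir3. Its antisense gain was 2.37 in arp5, 1.42 in ies6 and 2.24 in ino80, and was concentrated in the last 5 body windows, with means of 3.80, 3.23 and 3.96. FET4 (YMR319C; chromosome XIII, 912880 to 914538, minus strand), a low-affinity transporter of iron and other metals, had sense values of -1.99 in ies6 and -1.98 in ino80, one just past -1 in arp5, and 0.23 in sir3. Its FPKM was 31.1 in arp5, 20.4 in ies6 and 56.6 in sir3, against 46.6 in BY4741, and 23.4 in ino80, against 53.7 in CY337.

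PHO84 and GPA1 had the lowest sense values by mean over the 3 mutants. PHO84 was below 0 in all 3 and by far the lowest in ino80, while GPA1 was low in arp5 and ies6 and not in ino80. PHO84 had sense values of -0.75 in arp5, -0.89 in ies6, -3.82 in ino80 and 0.16 in sir3. Its FPKM was 27.3 in ino80, against 813 in CY337, and 435 in arp5, 317 in ies6 and 135 in the double mutant, against 569 in BY4741. Its lowest sense value and its highest antisense value thus stand in the same strain. GPA1 had sense values of -3.82 in arp5, -3.01 in ies6, 0.42 in ino80 and -4.99 in sir3, so its sense value was low in sir3 with an antisense value of 0.47, and was not low in ino80 with an antisense value of 2.69. Its FPKM was 9.82 in arp5, 7.99 in ies6 and 4.49 in sir3, against 72.1 in BY4741, and 67.4 in ino80, against 106 in CY337. GPA1 belongs to the haploid-specific genes, and markers of mating type moved in the same strains. Of 12 haploid markers 10 were more than 2-fold lower in arp5, 11 in ies6, 11 in sir3 and 0 in ino80. The 12 include GPA1 itself, which is counted among the lower ones in arp5, ies6 and sir3. All 7 a-cell markers were more than 2-fold lower in arp5, ies6 and sir3, against 1 in ino80. The median log2 FPKM ratio over the 12 haploid markers was -2.18 in arp5, -2.37 in ies6, -3.35 in sir3 and -0.32 in ino80 over CY337. Their summed FPKM is not compared. In BY4741 it was 51389, of which 50355 came from MFA1, which is also on the a-cell list. Of 4 alpha-cell markers 1 was more than 2-fold higher in arp5, 1 in ies6, 0 in sir3 and 2 in ino80, and no marker of the 3 lists was at 0 in any strain. Their part in the GPA1 values was not tested. ROF1 (YHR177W), a regulator of colony morphology, had sense values of -0.96, -2.70 and -0.10 in arp5, ies6 and ino80, while its FPKM, which does not separate the strands, was 13.2 in ies6, against 7.79 in BY4741.

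At the other end, 6 genes had a sense value of at least 1 in all 3 mutants, where 4.57% of all genes did, which is close to the members' 4.96%. The 5 highest means were those of PDC6, HXT10, YGL081W, SPR1 and USV1. PDC6 (YGR087C) had sense values of 3.37 in arp5, 2.73 in ies6, 4.28 in ino80 and 0.16 in sir3, and FPKM of 5.37 in arp5 and 3.40 in ies6, against 1.01 in BY4741, and 13.3 in ino80, against 1.28 in CY337. HXT10 (YFL011W), a hexose transporter gene with relatives of like sequence, had sense values of 1.80, 1.80 and 4.22, and -1.01 in sir3. YGL081W had 1.85, 1.68 and 3.53. SPR1 (YOR190W), an exo-glucanase of the spore wall, had 1.74, 1.93 and 2.41, and 1.49 in sir3. USV1 had 1.88 in arp5, 2.39 in ies6 and 0.69 in ino80. These 5 genes had low RNA in wild type, at most 11.6 FPKM in BY4741.

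FPKM, which sums both strands, moved little over the set. The median log2 ratio of FPKM + 1 over the members with at least 5 FPKM in either strain was -0.01 in arp5 (117 genes), 0.02 in ies6 (115 genes), -0.07 in ino80 over CY337 (120 genes), 0.06 in ies2 (114 genes), 0.03 in sir3 (112 genes) and -0.04 in the double mutant (117 genes). More than 2-fold higher were 8 genes in arp5, 8 in ies6, 10 in ino80, 4 in ies2, 0 in sir3 and 16 in the double mutant, where 7.46%, 7.36%, 8.86%, 4.67%, 2.5% and 18.3% of all genes were. More than 2-fold lower were 9, 6, 8, 1, 1 and 20 genes, where 4.72%, 4.13%, 6.02%, 1.72%, 3.06% and 12.1% of all genes were. The members' shares lay near those of all genes in most of these comparisons. The 1 gene lower in sir3 was GPA1. The highest levels among the members belonged to PIR1, a cell wall protein, with 687 FPKM in BY4741, PHO84 with 569, PDA1, of pyruvate dehydrogenase, with 380, DUT1, the dUTPase, with 379, and PGA3, a cytochrome b5 reductase homolog, with 287. Levels below 5 FPKM in BY4741 were found for 10 of 121 genes, where 9.98% of all genes had one.

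Among the gene lists compared, meiosis and sporulation genes had the highest share of members, 30%, where 7.79% of all 1553 genes are members; no list was tested. Of 20 such genes in the strand tables, 6 were members: REC8, REC102, SPO21, SPR1, SPR6 and SPR28. REC8 (YPR007C) had antisense values of 3.07 in arp5, 2.59 in ies6, 3.18 in ino80 and 0.26 in sir3 and sense values of 1.41, 1.26, 2.13 and -0.54, with 4.90 FPKM in arp5 and 4.50 in ies6, against 1.38 in BY4741, and 10.05 in ino80, against 2.18 in CY337. SPO21 (YOL091W), a scaffold of the meiotic spindle pole, had 13.2 FPKM in arp5 and 8.40 in ies6, against 3.34 in BY4741, and 25.1 in ino80, against 8.18 in CY337. SPR28 (YDR218C), a sporulation septin, had 12.1 and 7.82, against 2.18 in BY4741, and 7.01 in ino80, against 1.78 in CY337. REC102 (YLR329W), which meiotic recombination needs, had sense values of 1.97, 1.91 and 0.07, and 1.36 in sir3. SPR6 (YER115C) stood apart, with sense values of 0.31, 0.14 and 0.06 and 52.4 FPKM in arp5, against 58.7 in BY4741. Over all 20 genes the median antisense value was 0.68 in arp5, 0.57 in ies6 and 1.75 in ino80, and the median sense value 1.03, 1.01 and 1.03, so in this list sense and antisense values both lay above the medians of the tables. The mating-type markers named above moved in arp5 and ies6; their part in these values was not tested.

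The other lists had shares of members from 0 to 21.4%, beside the 7.79% of all genes, and those of the transporters (9.68%), the genes with described antisense RNA (9.09%) and the cell cycle genes (10%) lay near it. Of 14 DNA repair genes 3 were members, APN1, an abasic-site endonuclease, MLH2, of mismatch repair, and PHR1, the photolyase, with smallest antisense values of 1.94, 1.18 and 1.82. Of 31 nutrient transporters 3 were members, PHO84, HXT10 and TAT1, an amino acid permease. Of 11 genes with antisense RNA described in yeast PHO84 was the 1 member, of 8 glycolytic and related genes PDC6, and of 10 cell cycle and replication genes MCM10, an essential initiation factor. Of 38 ribosomal protein genes 0 were members, with median antisense values of -0.16 in arp5, 0.10 in ies6 and 0.18 in ino80. Of 7 genes for factors that limit antisense or cryptic RNA and of 2 INO80 subunit genes 0 were members.

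The 121 genes included few short ones and were spread over the genome. Their median length was 1371 bp, with quartiles of 885 and 1830 bp, against a median of 1188 bp and quartiles of 652.5 and 1849 bp for the other genes, so the upper quartiles were alike. The range ran from APQ12, with 417 bp, HAB1, with 435 bp, and DUT1, with 444 bp, to FLO1, a flocculin with repeats and close relatives, with 4614 bp, TCB2, with 3537 bp, ECM32, with 3366 bp, DSE4, with 3354 bp, and GDH2, with 3279 bp. Under 500 bp were 4 of 121, where 17.1% of all genes were. All 16 chromosomes held a member. Within 20 kb of a chromosome end lay 2 of 121, where 6.37% of all genes do. As a whole, genes of chromosomes XI and XII had median FPKM log2 ratios of 0.37 and 0.39 in arp5, and genes of chromosome III had 0.96 in ino80. On XI, XII and III lie 11, 9 and 1 of the members. They are 10.9%, 7.2% and 2.17% of the genes of the strand tables there, where 7.79% of all genes are members. The part of these shifts in the choice of members was not tested, and 100 members lie on the other chromosomes.

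Neighbours differed little in arrangement. The next gene past the 3′ end lay on the same strand for 114 of the 121 genes, at a median distance of 436 bp, against 453 bp for the other genes. A convergent next gene was found for 7 of 121, where 7.6% of all genes have one: SSU72, PHR1, SGV1, TYE7, ERV1, MGA1 and YLR001C. Its distance was smallest at SGV1, a cyclin-dependent kinase, with 434 bp to GPH1. For 6 of 121 genes, 4.96%, the next gene was a member too, close to the 4.57% of all genes: GPA1 before NEM1, CUE2 before MIF2, MTR2 before FAT3, UME1 before MKK2, DSE4 before YNR066C and MRPS5 before DUT1. Past RAP1 the next gene, 295 bp away, is IES2, itself an INO80 subunit. Past PHO84 it is TUB3, past GPA1 NEM1, past REC8 ICL2, past SAN1 PEX7, past NAT4 MOT3, past FRE3 YOR381W-A, past PRO2 LDB19, past KTR2 TFA2 and past BSP1 YPR172W, each on the same strand.

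FPKM of the next gene was more often higher in the mutants. It was higher for 75 of 119 next genes in arp5, where 51.2% of the next genes of all 1553 were, for 71 of 119 in ies6, against 49.3%, and for 68 of 119 in ino80 over CY337, against 48.3%. The median log2 ratio of the next gene was 0.12 in arp5, 0.11 in ies6 and 0.09 in ino80 at members, and 0.00, -0.00 and -0.02 at the other genes. For the gene before the 5′ end the medians at members were -0.04, 0.01 and -0.07, against 0.03, 0.01 and 0.00 at the other genes. These differences are small beside the quartiles at members, which for the next gene in arp5 were -0.18 and 0.54.

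At least 1 window bound by Arp5 was listed about as often at members as at all genes on either side of the gene. Within the gene at least 1 was listed more often at members, but the share of body windows listed was not higher. In the deposited list of significant 50 bp windows, at least 1 window was listed in the 500 bp before the gene for 115 of 121 members, where 93.4% of all genes had one, in the body for 114, where 87.4% had one, and in the 500 bp past the 3′ end for 114, where 92.5% had one. Within the body, divided into 3 equal parts, the first part held a listed window in 103 members, where 74.1% of all genes had one, and the last part in 89, where 70% had one. Longer genes hold more windows, and the part of length in these shares was not tested. The median of the highest listed log2 value was 0.93 in the promoters of members and 0.91 in those of other genes, and 0.84 and 0.88 past the 3′ end. Around the 3′ end Arp5 windows were listed at 27.3% of members between 200 and 150 bp before it and at 76.0% between 100 and 150 bp past it. The other genes had 29.2% and 69.7% there. The highest values stood at YEF1, an NAD kinase, with 2.03 in its body, ATG19, a receptor of the Cvt pathway, with 1.96 in its promoter, and ACA1, a transcription factor, with 1.94 in its promoter.

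H3K4me3, measured in libraries that played no part in the choice of genes, was higher in the 3′ part of these genes in arp5, and lower in their 5′ part, where each gene was divided into 3 equal parts. In the 3′ part the members' median was -0.93 (log2 over input) in arp5 and -1.20 in BY4741, and the other genes had -1.42 in arp5 and -1.28 in BY4741. Gene by gene, the difference of arp5 minus BY4741 had a median of 0.12 in the members, with quartiles of -0.28 and 0.64, and of -0.12 in the other genes. The value was higher in arp5 for 74 of 121 members, where 43.3% of all genes were higher, and by at least 0.5 for 37, where 14.4% of all genes were. The gap between members and other genes, 0.24, is smaller than the spread among genes, and with 1 library each it could not be set against replicate error. The median difference was 0.22 between 300 and 250 bp before the 3′ end in members and -0.08 in other genes. The members' median difference was the higher one at each starting level. Where the BY4741 value of the 3′ part was below -2, the median difference was 0.49 in 40 members and 0.14 in 552 other genes. Where it lay between -2 and -1, it was 0.31 in 28 members and -0.17 in 220 others. Where it lay between -1 and 0, it was -0.15 in 24 members and -0.37 in 204 others. Where it was 0 or more, it was -0.16 in 29 members and -0.28 in 456 others.

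**Figure D5:**
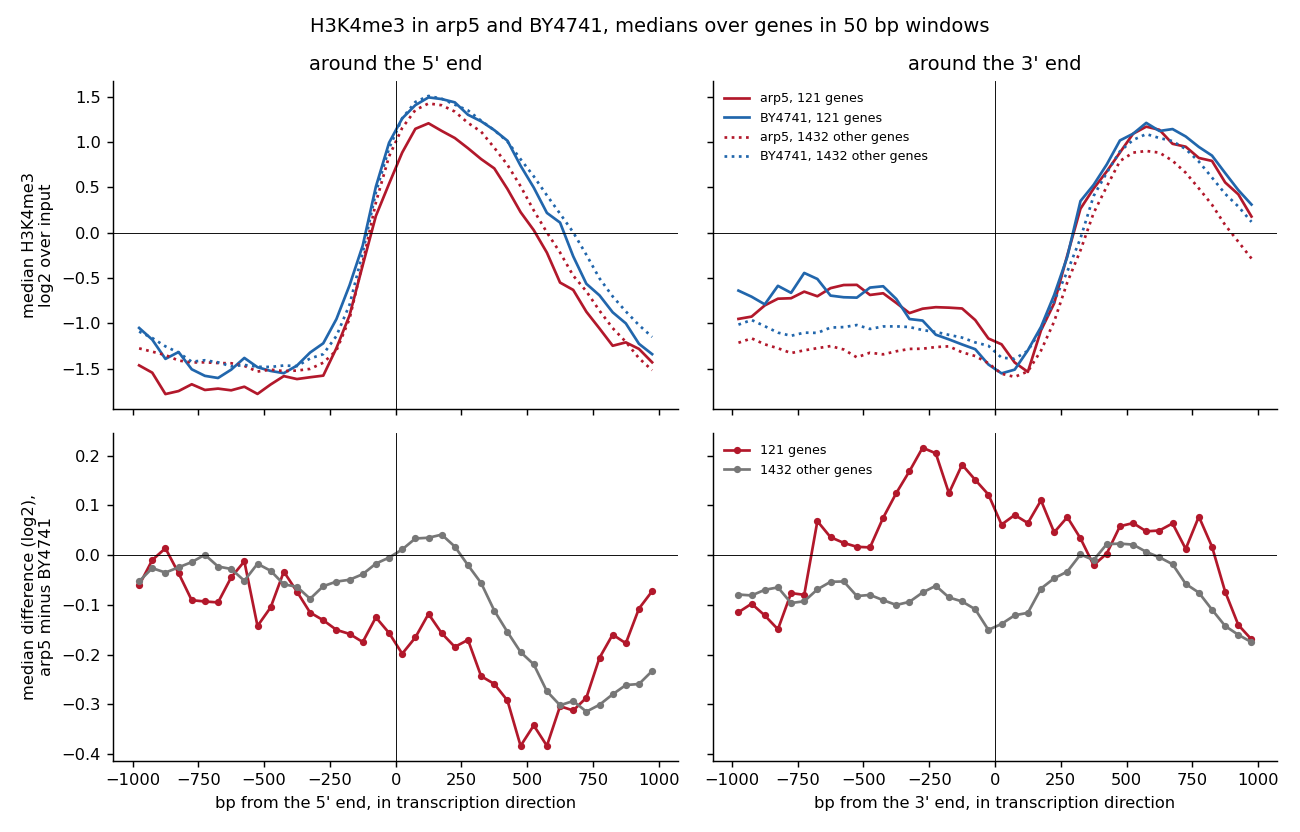
Median H3K4me3 (log2 over input, top) in arp5 and BY4741 and the median of the difference arp5 minus BY4741 (log2, bottom) in 50 bp windows by distance from the 5′ end (left) and the 3′ end (right), for the 121 genes and 1432 other genes. Left of the 3′ end the difference of the 121 genes reaches 0.22 while that of the other genes stays below 0, and around the 5′ end the 121 genes lie lower.

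Over all 1553 genes, the members included, the H3K4me3 difference was higher where the smallest antisense value was larger, though not at every step. Ordered by the smallest antisense value of the 3 mutants, the median difference in the 3′ part was -0.23 in 666 genes below 0, -0.07 in 374 genes from 0 to 0.25, 0.03 in 189 from 0.25 to 0.5, -0.02 in 118 from 0.5 to 0.75, -0.02 in 85 from 0.75 to 1, 0.12 in 69 from 1 to 1.5 and 0.21 in 52 at or above 1.5. Over the 1553 genes the difference had a Pearson correlation of 0.25 with the antisense value in arp5, 0.25 in ies6, 0.12 in ino80 and 0.03 in sir3. Over the 121 genes alone it was 0.29, 0.24, 0.35 and -0.09. Over the other 1432 genes it was lower, 0.19, 0.19 and 0.03 in arp5, ies6 and ino80, and 0.01 in sir3. Among genes that reached an antisense value of 1 in some of the 3 mutants, the median difference was 0.045 in 38 genes with arp5 and ies6, 0.023 in 95 with arp5 and ino80, -0.019 in 32 with ies6 and ino80, 0.0084 in 30 with ies6 only, -0.10 in 68 with arp5 only and -0.17 in 346 with ino80 only. It was -0.12 in the 823 genes that reached it in none, so the groups lay between the members' 0.12 and -0.17. The ChIP was made in arp5 and not in ino80 or ies6.

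At the 5′ end H3K4me3 was lower in arp5. In the 5′ part the members' median was 0.69 in arp5 and 1.24 in BY4741, and that of the other genes was 0.76 in arp5 and 0.98 in BY4741. The difference had a median of -0.18 in members and -0.04 in other genes, and was -0.5 or lower in 34 of 121 members, where 18.4% of all genes were. Sense RNA varied with it. Over the 121 genes the sense value in arp5 and the 5′ difference had a Pearson correlation of 0.53, and over all 1553 genes of 0.36. The Spearman rank correlations were lower, 0.38 and 0.25. Of the 34 members with that loss, 18 had a sense value below 0 in arp5, and of the other 87 members 15 did. The 5 lowest differences, chosen after their values were seen, were those of NMD5, ROF1, GPA1, FET4 and ATF1, an alcohol acetyltransferase gene, and ROF1, GPA1, NMD5 and FET4 are also among the 5 lowest by sense value.

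In 12 genes both changes stood together, a 5′ part lower by at least 0.5 and a 3′ part higher by at least 0.5, where 2.83% of all genes had both. They were GPA1, FRE3, FAT3, TCB2, DSD1, HIS7, ERV1, FLR1, NMD5, GDH2, MGA1 and ECM32, and their median length was 1898 bp, against 1332 bp for the other 109. NMD5 had the largest loss. Its 5′ part stood at -2.78 in arp5 and 0.31 in BY4741, and its 3′ part at -0.54 in arp5 and -2.89 in BY4741, so the mark was higher at the 3′ than at the 5′ end in arp5 and lower in BY4741. TCB2 (YNL087W), a tether between endoplasmic reticulum and plasma membrane, had -2.36 in arp5 and -0.36 in BY4741 in the 5′ part and 0.28 in arp5 and -1.94 in BY4741 in the 3′ part. GPA1 had -0.95 in arp5 and 1.39 in BY4741 in the 5′ part and 0.61 in arp5 and -0.53 in BY4741 in the 3′ part. GDH2, the NAD-dependent glutamate dehydrogenase, had 0.69 in arp5 and 1.22 in BY4741 in the 5′ part and -1.55 in arp5 and -3.33 in BY4741 in the 3′ part. Over the 12 genes the median FPKM log2 ratio of arp5 over BY4741 was -0.64, and over the other 109 it was 0.07. FPKM sums both strands; the median sense value in arp5 was about 0 (-0.0060, with 6 of 12 below 0) over the 12 genes and 0.27 (27 of 109 below 0) over the others. Higher values in the 3′ part were also found where sense RNA was higher. Among the 5 highest, YKR005C had a 3′ part of -0.36 in arp5 and -2.82 in BY4741, a sense value of 1.27 in arp5 and 9.36 FPKM in arp5, against 3.94 in BY4741. RAP1, with the highest antisense values, had -0.30 in arp5 and -1.57 in BY4741 in the 3′ part, and 1.34 in arp5 and 1.48 in BY4741 in the 5′ part.

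H3K79me3 did not show opposite shifts in the 5′ and 3′ parts. In the 5′ part the deposited log2 ratio of arp5 over BY4741 had a median of 0.14 in members and 0.17 in other genes. In the 3′ part the medians were 0.13 in members and 0.19 in other genes, so members lay slightly lower in both parts. The deposited log2 ratio of arp5 over BY4741 over the gene body had a median of 0.12 in members and 0.15 in other genes, and was above 0 in 75 of 121 members, where 64.8% of all genes were. In BY4741 the body level was highest in RAP1, with 1.04, TCB2, with 0.97, and SGV1, with 0.85, and lowest in NAT4, with -2.75, PDC6, with -2.05, and HAB1, with -1.97. In arp5 the 3 highest stood at 0.58, 0.23 and 0.70 and the 3 lowest at -1.97, -1.08 and -1.21. The body level of H3K4me3 in BY4741 was highest in SPC24, a kinetochore protein, with 1.76, VPS60, with 1.74, and APQ12, with 1.69, and lowest in HXT10, with -4.00, PRM7, with -3.47, and PDC6, with -3.28. Of these, SPC24 had 1.19 in arp5, PRM7 -2.52 and HXT10 -3.41. PRM7, a gene regulated by pheromone, had a 3′ part of -1.13 in arp5 and -2.93 in BY4741.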

How the data were processed

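RNA and ChIP libraries of yeast were sequenced and processed by the authors. Per the submitters' processing notes, RNA reads were processed with TopHat2 2.0.8, Bowtie and Cuffdiff 2.0.2 and ChIP reads with Bowtie 0.12.9, on sacCer3. The deposited FPKM values have 1 column per genotype. The deposited strand tables give, for each gene, 35 windows of log2 values (mutant relative to wild type), and the deposited ChIP tables give log2 ratios in 50 bp windows. How libraries were pooled, strands were separated and ChIP values were scaled are points not given in the sources used here. Per the labels, the kit was TruSeq v2, which does not keep strand, though 7 RNA libraries are marked BIOO. In 1 label field the arp5 ChIP samples are called WT; their titles were followed.

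The strand tables hold 1556 lines for 1553 genes; 3 repeats were dropped. File starts were moved by 1 base to count from 1. Gene names came from a RefSeq table, which matched 1487 genes and all 121 members. Gene values are means over 15 body windows. FPKM ratios used a pseudocount of 1, counted genes of at least 5 FPKM in either strain and called those past 2-fold; a difference in a mark was counted from 0.5 (log2). ChIP regions were the body, the first and the last of its 3 equal parts, and 500 bp on either side; windows are in transcription direction. The search for members was run on simulated data with a gain of 3 (log2) in every body window, well above the threshold. The noise of each mutant was drawn separately there, so the simulation cannot bound false members from a shared wild type. No test across samples was possible. The members, the gene lists and the rule for named genes were chosen with earlier results of these data known. Named are the 10 members with the highest smallest antisense value and their next genes, 3 members and 3 genes at the threshold, the 5 highest and lowest by sense and by sir3 antisense value, the 5 most abundant, the 5 longest and 3 shortest, the extremes of Arp5 and both marks, and members of the lists; genes named for the H3K4me3 difference, for a convergent neighbour or for an adjacent member were chosen after their values were seen. Python 3.11.15 with pandas was used. Alternatives are given at the end; those on the 3′ part of the gene and on chromosomes were chosen after seeing the data.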

Additional observations from a re-analysis of the deposited data

How the results depend on the processing

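The number of genes depended on the rule. It was 185 at a threshold of 0.8, 52 at 1.5, 61 with each table centred on its own median and 267 with windows at 0 left out, and 87 with the median over the body, of which 77 are among the 121. With each table centred, the median sense value of the members was -0.16 in ino80, 0.029 in arp5 and -0.037 in ies6, so its sign in ino80 and ies6 depends on the scaling, and at a threshold of 0.8 it was 0.50 in ino80. The median sir3 antisense value was 0 with the median over the body. With a mean FPKM of at least 10 the median FPKM log2 ratio was -0.12 in arp5 and -0.076 in ies2. With the median over windows the BY4741 body level was 0.064 for H3K79me3 and -0.21 for H3K4me3. The H3K4me3 difference in the 3′ part was 0.23 with 4 parts per gene in place of 3, and between 0.11 and 0.22 under the other alternatives tried for it; 5 of these 7 alternatives were added after seeing the data. The causes of these moves were not tested. Of 91 alternative values 77 moved by less than 0.1 (log2), by less than 1.5 times for a count, or within the 95% binomial interval of a share. No paired analysis was possible because the deposited values are not split by library, and for the same reason no replicate could be left out. Depth is unknown, so values of genes with little antisense RNA cannot be bounded.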
